A study of Brassica napus with 10 samples.

Results

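The 96 genes described here were the abundant transcripts of *Brassica napus* embryogenic structures whose level in pollen was low by comparison. They were chosen from 59458 genes by measured values. A gene was taken when it had at least 1 count over the 3 pollen libraries, a mean of at least 100 CPM in each of the 2 embryogenic groups, and both of those means at least 8 times the pollen mean. CPM is a gene's count per 1000000 counts of its library, so it is a share of the library and not an amount per cell. The selection used the pollen contrast and the level in the embryogenic groups, and values of those kinds are given as a description with no test. It did not directly use the contrast between the embryogenic groups, the order of libraries within a group or the structure of the genes. A gene past the limits at only 1 dose was left out, so the contrast between the doses was not wholly free of the choice. The libraries also differed in their likeness to pollen, so their order was not wholly free of it either.

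Immature male gametophytes of *B. napus* that are isolated and cultured in mild conditions go on to form pollen, whereas a heat stress turns a fraction of them towards embryo formation, a route called microspore embryogenesis. Trichostatin A (TSA) blocks histone deacetylases, enzymes that take acetyl groups off histones and other proteins, and it raises the number of cells that take this route. LEC1 is a subunit of a nuclear transcription factor complex of the embryo, and a fluorescent LEC1 fusion marks cells that have taken on embryo identity.

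RNA-seq libraries were made from 3-day-old cultures of the line DH12075, and all groups, pollen included, carried the pLEC1:LEC1-GFP reporter. Pollen (3 libraries) was cultured at 18 °C and was not sorted. The HS + TSAlow group (4 libraries) received heat stress (HS) with 0.05 µM TSA and the HS + TSAhigh group (3 libraries) heat stress with 0.5 µM TSA, and their structures were sorted for GFP fluorescence. Each library was made from 150000 collected or sorted cells, and the labels call the libraries biological replicates. Per the study, the stressed cultures were also kept warmer than pollen after the heat stress. Heat stress, TSA, later culture temperature, sorting and the kind of cell went together in the comparison with pollen and cannot be told apart there. The sorted fraction was chosen by reporter fluorescence and can hold embryogenic structures of several types. The DH12075 line was described in the study as a low responder to heat stress alone.

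Library totals ran from 93367646 to 109105528 counts in pollen, from 51838498 to 61458274 in HS + TSAlow and from 58468526 to 67884748 in HS + TSAhigh. Between 65.8% and 75.2% of nonzero counts in a library were even, so both mates of a read pair may have been counted, in which case the totals overstate the number of fragments. This was not tested. The sources used here pair gene IDs with named genes only for a list of orthologs of stress genes that holds none of the 96, so no gene below is given a name or a function, and the markers of embryo, pollen and other cells were not analysed here. An earlier look over all genes of these data had set HS + TSAlow libraries 1 and 4 apart from libraries 2 and 3. Over the 45264 genes tested, deviations from the group mean correlated between HS + TSAhigh library 1 and HS + TSAlow libraries 1 and 4 (r = 0.320 and 0.292). Against HS + TSAlow libraries 2 and 3 the r was -0.235 and -0.287. Deviations cancel out within a group, so values of opposite sign had to occur among these libraries and are not separate evidence. The dose comparison is given with and without HS + TSAlow libraries 1 and 4, and without HS + TSAhigh library 1 as well. Without HS + TSAlow libraries 1 and 4 the rule chose 110 genes.

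All 96 genes together made up a very small share of the pollen transcriptome and several percent of the embryogenic one. Their summed level was 781, 845 and 827 CPM in pollen libraries 1 to 3. It was 28684, 49513, 44579 and 27987 CPM in HS + TSAlow libraries 1 to 4, and 26408, 42365 and 50424 CPM in HS + TSAhigh libraries 1 to 3. As a share of all counts, the HS + TSAlow libraries averaged 3.77% ± 1.10 (SD, n = 4) and the HS + TSAhigh libraries 3.97% ± 1.22 (SD, n = 3). The pollen libraries averaged 0.0817% ± 0.0033 (SD, n = 3). The embryogenic groups overlapped each other, and neither came near pollen. In RNA from bulk samples, fewer cells that express a gene and less RNA of it per cell cannot be told apart. The rule fixed the gap to pollen, and both embryogenic groups were set against the same 3 pollen libraries.

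**Figure D1:**
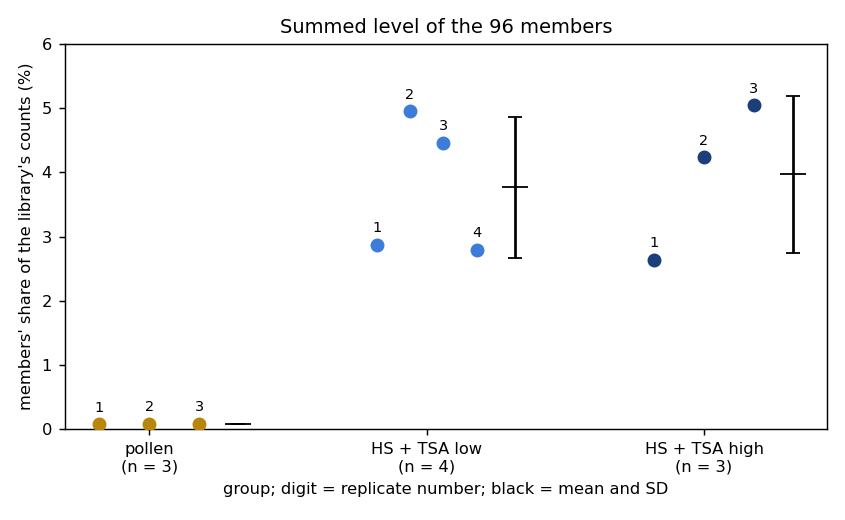
Summed share of all counts taken by the 96 genes in each of the 10 libraries, in percent, with 1 point per library and the group mean and SD. Pollen lies near 0.08%, and within HS + TSAlow the libraries 1 and 4 lie at 2.87% and 2.80%, below libraries 2 and 3 at 4.95% and 4.46%.

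The sum did not rest on a few genes alone. The 10 highest genes of each library carried 35.0% to 42.5% of it in HS + TSAlow and 29% to 35.6% in HS + TSAhigh. In pollen the 10 highest carried 45% to 49%. The mean level of single genes ran from 100.6 to 3458 CPM in HS + TSAlow, with a median of 234.9 CPM, and from 100.6 to 1409 CPM in HS + TSAhigh, with a median of 245.0 CPM. In 17 genes both means were at 500 CPM or more, and in 4 genes both were at 1000 CPM or more.

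Low in pollen did not mean absent. The pollen mean of single genes ran from 0.00682 to 71.6 CPM with a median of 3.29 CPM. It was under 1 CPM in 31 genes, from 1 to under 10 CPM in 37 and at 10 CPM or more in 28. Counts were present in all 3 pollen libraries for 86 genes, and all 96 had counts in each of the 7 embryogenic libraries. For 10 genes at least 1 pollen library was at 0, which allows up to 3 counts in that library. The label of low pollen level therefore held for most of the genes, while the 28 genes at 10 CPM or more in pollen were low only relative to their embryogenic level.

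The ratio of the HS + TSAlow mean to the pollen mean ran from 8.29 to 101438, with a median of 72.6. In HS + TSAhigh it ran from 8.33 to 30457, with a median of 78.6. Both ratios were at least 100 in 40 genes and both under 16 in 10. The highest ratios rested on a handful of pollen counts. For C05p07380.1_BnaDAR, with 2 counts over pollen, the ratio for HS + TSAlow on pooled counts was 52070 with a 95% interval of 14414 to 429967. For BNapus_Darmor_BZH_scaffold_99p00330.1_BnaDAR, also with 2 counts, it was 26475 with an interval of 7329 to 218620. These genes are named because they were the only members with 1 to 3 pollen counts, and were singled out after their values were seen. The intervals are exact binomial ones and cover counting error only. They would be too narrow if both mates of a pair were counted.

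Every embryogenic library lay above every pollen library in 96 of 96 genes, beside 22.1% of all genes tested, a count that the rule itself nearly fixes. The lowest embryogenic library was between 2.47 and 5206 times the highest pollen library, with a median of 30.1, and in 75 genes it was at least 8 times as high. At the edge of the level limit, A02p00450.1_BnaDAR lay just inside with means of 110.4 and 100.6 CPM at low and high TSA. Just outside it lay C09p21490.1_BnaDAR with 99.9 and 128.6 CPM. At the edge of the ratio limit, A03p40170.1_BnaDAR lay just inside with means of 39.9, 330.5 and 743.2 CPM in pollen, HS + TSAlow and HS + TSAhigh. C03p05010.1_BnaDAR lay just outside with 75.6, 577.0 and 638.0 CPM.

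**Figure D2:**
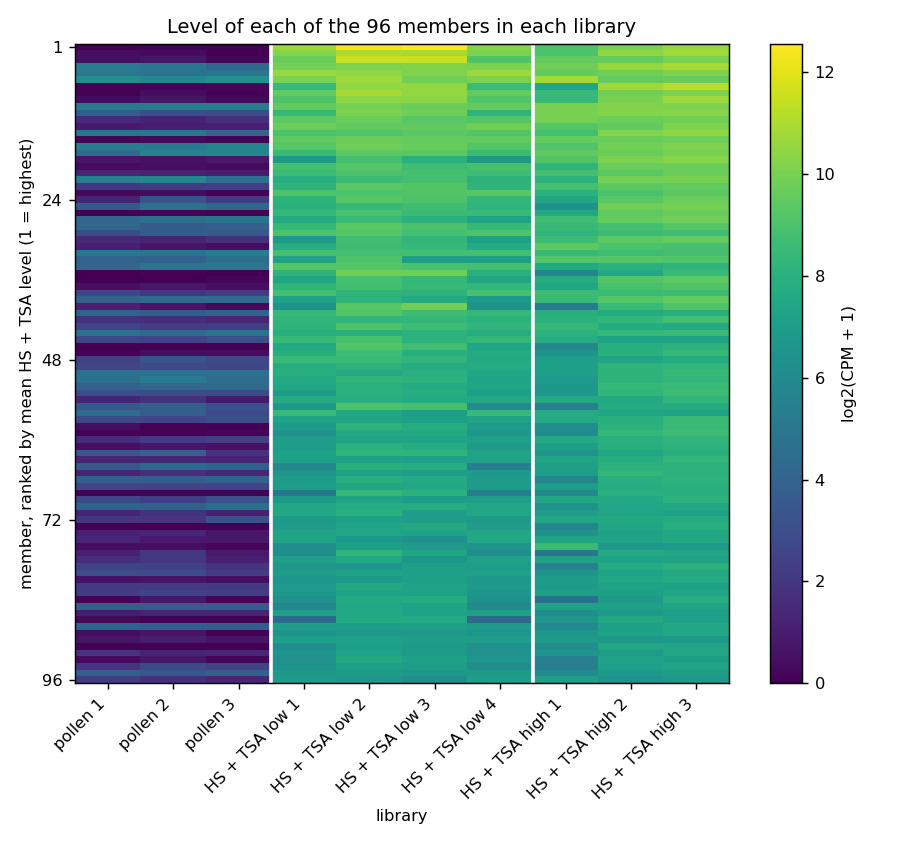
Level of each of the 96 genes (rows) in each of the 10 libraries (columns), as log2(CPM + 1). Rows are ranked by mean embryogenic level, and darker cells are lower. The 3 pollen columns are darker than the 7 embryogenic columns in all rows, and many rows are darker in HS + TSAlow libraries 1 and 4 and HS + TSAhigh library 1 than in the other embryogenic libraries.

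The highest of all was A08p04090.1_BnaDAR, a gene of 2 exons and 317 exonic bases on the plus strand at A08:2691662-2692079 of the Darmor-bzh version 10 genome. Its level was 0, 0.102 and 0 CPM in pollen, 1688, 4992, 5980 and 1171 CPM in HS + TSAlow libraries 1 to 4, and 532, 1036 and 1547 CPM in HS + TSAhigh libraries 1 to 3. All 10 of its pollen counts were in library 2, and the embryogenic groups overlapped, since HS + TSAlow library 4 lay below HS + TSAhigh library 3. On pooled counts the HS + TSAlow level was 107960 times the pollen level, with a counting interval of 58704 to 225134, and the HS + TSAhigh level 30835 times, with an interval of 16767 to 64302. The HS + TSAhigh mean of 1038 ± 507 CPM (SD, n = 3) was below the HS + TSAlow mean of 3458 ± 2386 CPM (SD, n = 4). This difference did not pass the test (log2 fold change -1.75, SE 0.74, adjusted p = 0.166, edgeR). Without HS + TSAlow libraries 1 and 4 the log2 fold change was -2.43 (adjusted p = 0.071, edgeR), and without HS + TSAhigh library 1 as well it was -2.10 (adjusted p = 0.075, edgeR). Per kb of exon its mean embryogenic level was 7092 CPM, where the median over the 96 genes was 305 CPM per kb.

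Next came A06p07030.1_BnaDAR, with 2 exons and 968 exonic bases on the minus strand at A06:4014512-4015577. Its level was 0.386, 0.286 and 0.018 CPM in pollen, 1197, 1986, 1839 and 1092 CPM in HS + TSAlow, and 513, 1471 and 1710 CPM in HS + TSAhigh. Pollen held 66 counts in all, nearly all in libraries 1 and 2, and HS + TSAhigh library 1 stood below all other embryogenic libraries. The log2 fold change between doses was -0.31 (SE 0.58, adjusted p = 0.778, edgeR), and it was 0.074 without HS + TSAhigh library 1. Without HS + TSAlow libraries 1 and 4 it was -0.66, without those and HS + TSAhigh library 1 it was -0.28, and with only those 3 embryogenic libraries it was -1.24. Per kb of exon it was at 1425 CPM, well below A08p04090.1_BnaDAR.

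The contrast between the TSA doses was not directly used to choose the genes, but was not wholly free of the choice. It was fitted with edgeR over all 45264 genes tested, and all 96 genes were among them. At an adjusted p (Benjamini-Hochberg) of at most 0.05, 6 of the 96 genes rose from low to high TSA, which is 6.25%, beside 4.94% of all genes tested. A further 4 fell, which is 4.17%, beside 5.46% of all genes. The other 86 did not pass. In this fit both shares were near those over all genes. In some alternatives given below the share among the 96 lay above that of all genes, and in others below it. At an unadjusted p under 0.05 the count was 28 of 96 (29.2%), beside 27.7% of all genes. The median log2 fold change was 0.20 in the 96 genes and 0.02 over all genes, with 64 of the 96 above 0 and 32 below, beside 23273 above and 21946 below among all genes. All HS + TSAhigh libraries lay above all HS + TSAlow libraries in 13 genes (13.5%), beside 12.1% of all genes, and below them in 6 (6.25%), beside 11.7%.

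The count of genes that rose was decided by single libraries. It was 0 without HS + TSAlow library 1, HS + TSAhigh library 2 or HS + TSAhigh library 3, with 19, 17 and 19 genes at an unadjusted p under 0.05 in edgeR, and 2.02%, 2.22% and 2.4% of all genes called higher in the same fits. It was 2 without HS + TSAlow library 3 and 3 without HS + TSAlow library 4, beside 3.58% and 3.11% of all genes. It was 18 without HS + TSAhigh library 1, beside 6.87% of all genes. The count that fell was 0 without HS + TSAhigh library 2 and 2 without HS + TSAhigh library 3, beside 2.91% and 2.79% of all genes. Without HS + TSAlow libraries 1 and 4, 0 rose and 5 fell in edgeR, beside 1.37% and 2.88% of all genes, with 20 at an unadjusted p under 0.05. Without those libraries and HS + TSAhigh library 1 as well, 9 rose and 6 fell, beside 4.49% and 5.73%. In the reverse fit, with only those 3 embryogenic libraries and pollen, 9 rose and 17 fell, beside 5.28% and 6.87% of all genes, and the single HS + TSAhigh library was assumed to vary like the other groups. On all libraries, 3 of the genes that rose and 2 of those that fell had a log2 fold change of at least 1 in size, beside 3.14% and 3.19% of all genes. At an adjusted p of at most 0.01 edgeR called 0 in either direction, beside 1.08% and 1.1% of all genes. On all libraries DESeq2 and limma-voom each called 12 genes higher and 5 lower, beside 9.27% and 8.53% of all genes in DESeq2 and 5.64% and 4.99% in limma-voom. All 10 genes called by edgeR were among them in either case. With the replicate number as a block, 6 rose and 7 fell, beside 2.58% and 3.68% of all genes, and 4 and 3 of them were also called without it. The block took in pollen as well, and HS + TSAlow library 4, alone in its number, added nothing to the dose contrast there. The median log2 fold change was -0.05 without HS + TSAhigh library 3 and -0.03 without HS + TSAlow libraries 1 and 4.

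**Figure D3:**
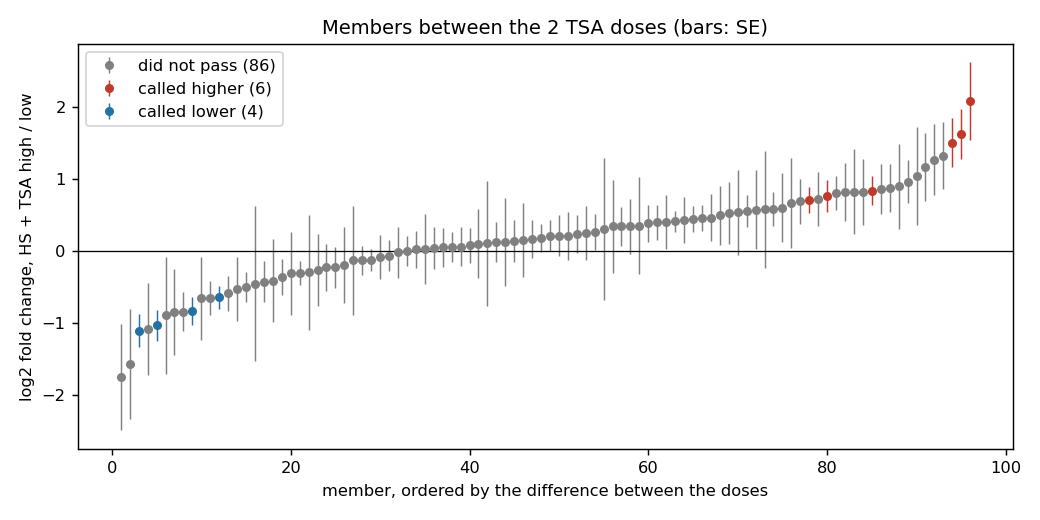
Log2 fold change from low to high TSA of each of the 96 genes, ordered along the horizontal axis by that value, with bars for the SE of the edgeR fit. The 6 genes that rose are red and the 4 that fell are blue. Most points lie within 1 log2 unit of 0, and the 2 lowest points, with wide bars, did not pass the test.

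The largest rise among the called genes was that of A01p23010.1_BnaDAR, with 4 exons and 1399 exonic bases on the plus strand at A01:12488654-12492067. Its level was 0.707, 0.470 and 0.788 CPM in pollen, 103.3, 444, 252 and 102.8 CPM in HS + TSAlow, and 572, 1080 and 1227 CPM in HS + TSAhigh. All HS + TSAhigh libraries lay above all HS + TSAlow libraries. The log2 fold change was 2.09 (SE 0.54, adjusted p = 0.042, edgeR). The call was lost in 11 of 22 alternatives, with adjusted p up to 0.121 in edgeR, 8 of which left out a single library (any of pollen, HS + TSAlow 1, 3 or 4, HS + TSAhigh 2 or 3), while the log2 fold change stayed between 1.83 and 2.64 when any 1 library was left out. Without HS + TSAlow libraries 1 and 4 it was 1.44 (adjusted p = 0.070, edgeR).

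The gene A06p44980.1_BnaDAR, a single exon of 599 bases on the plus strand at A06:43114425-43115023, also rose. Its level was 15.1, 19.8 and 19.7 CPM in pollen, 142, 274, 205 and 106 CPM in HS + TSAlow, and 347, 612 and 735 CPM in HS + TSAhigh. The embryogenic groups did not overlap. The log2 fold change was 1.64 (SE 0.35, adjusted p = 0.018, edgeR). The call was lost without HS + TSAlow library 1 and without HS + TSAhigh library 2 or 3, with adjusted p of 0.055, 0.053 and 0.061 in edgeR, and without HS + TSAlow libraries 1 and 4 together (0.068). The other 4 genes that rose had log2 fold changes of 0.71 to 1.51.

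Of the genes that fell, C09p65080.1_BnaDAR, a single exon of 900 bases on the plus strand at C09:60173008-60173907, had the largest change. Its level was 16.2, 28.4 and 29.7 CPM in pollen, 587, 612, 486 and 445 CPM in HS + TSAlow, and 198, 253 and 290 CPM in HS + TSAhigh. All HS + TSAhigh libraries lay below all HS + TSAlow libraries, and above all pollen libraries. The log2 fold change was -1.10 (SE 0.23, adjusted p = 0.015, edgeR), and without HS + TSAhigh library 2, as without HS + TSAlow libraries 1 and 4 and HS + TSAhigh library 1, the adjusted p was 0.052 in edgeR.

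A change of similar size was found for A02p20480.1_BnaDAR, with 2 exons and 882 exonic bases on the minus strand at A02:14017694-14018715. Its level was 5.33, 4.81 and 7.37 CPM in pollen, 354, 483, 275 and 326 CPM in HS + TSAlow, and 224, 152 and 155 CPM in HS + TSAhigh. The embryogenic groups did not overlap here either. The log2 fold change was -1.03 (SE 0.22, adjusted p = 0.014, edgeR), and without HS + TSAhigh library 2 or 3 the adjusted p was 0.059 and 0.052 in edgeR. With only HS + TSAlow libraries 1 and 4, HS + TSAhigh library 1 and pollen the log2 fold change was -0.68 (adjusted p = 0.114, edgeR). The other genes that fell had log2 fold changes of -0.83 and -0.64. The latter, C02p03810.1_BnaDAR, ranked 5 among the 96 by mean embryogenic level and was singled out after its values were seen.

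Genes with both embryogenic means at 100 CPM or more that were not 8 times above pollen in both numbered 1310. They shared the level limit with the 96 and were not matched on level. Of these, 76 rose (5.80%) and 150 fell (11.5%), with a median log2 fold change of -0.09. Among 977 genes that were at least 8 times above pollen at a lower level, with both means at 10 CPM or more, 78 rose (7.98%) and 14 fell (1.43%), with a median of 0.29. None of the 96 genes was in the study's list of orthologs of arabidopsis endoplasmic reticulum (ER) stress genes. Of that list, 52 genes had counts and were tested, and 3 rose and 0 fell between the doses in edgeR. Among all genes tested 4.94% rose and 5.46% fell, and whether the 52 differ from these shares was not tested.

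Within each embryogenic group the 96 genes were arranged over the libraries in a shared order. Relative to a gene's own HS + TSAlow mean, the median level was 0.842 in library 1, 1.27 in library 2, 1.09 in library 3 and 0.825 in library 4. Relative to the HS + TSAhigh mean it was 0.640, 1.07 and 1.28 in libraries 1 to 3. HS + TSAlow libraries 1 and 4 were both below libraries 2 and 3 in 65 of 96 genes (67.7%), beside 25.5% of all genes tested, and both above in 7 (7.29%), beside 32%. HS + TSAhigh library 1 was below libraries 2 and 3 in 80 genes (83.3%), beside 34.9% of all genes, and above in 12 (12.5%), beside 43.3%. In 59 genes (61.5%) the order with these libraries below held at both doses, beside 12.9% of all genes. The sets of libraries were taken from an earlier look at all genes of these same data, so the counts describe these libraries and no test was made. HS + TSAlow libraries 1 and 4 and HS + TSAhigh library 1 also correlated most with pollen in their groups (r = 0.852, 0.857 and 0.799). The 96 genes were chosen by their ratio to pollen, so these counts are not independent of the choice.

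**Figure D4:**
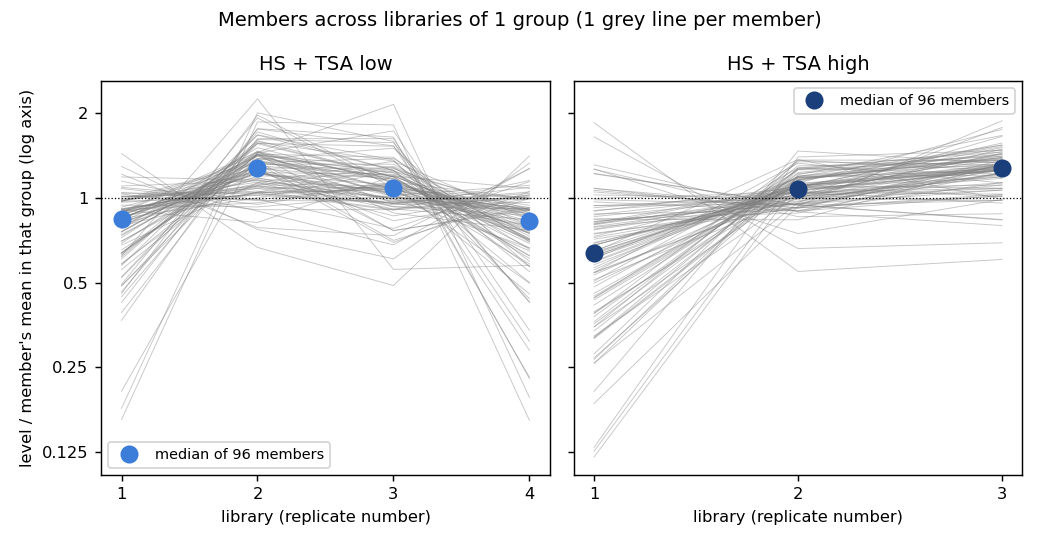
Level of each of the 96 genes in each HS + TSAlow and HS + TSAhigh library divided by that gene's mean in the group, on a log axis, with 1 grey line per gene and the median as a filled point. The medians of HS + TSAlow libraries 1 and 4 and of HS + TSAhigh library 1 lie below 1, and the line of a gene joins libraries that have no order.

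The same order was counted in other genes. Among the 1310 genes past the same level limit but not 8 times above pollen, the order of libraries held at both doses in 12.4%. That was close to all genes tested. Among the 977 genes 8 times above pollen at a lower level it held in 47%. The spread between libraries was compared over the same lists. The median SD of log2(CPM + 1) was 0.384 in HS + TSAlow and 0.543 in HS + TSAhigh for the 96 genes, 0.171 and 0.162 for the abundant genes, and 0.369 and 0.504 for the 977 genes. In pollen it was 0.238, 0.150 and 0.208 in the same order.

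Other measures of the libraries moved with this order in part. The 22 genes that were at 100 CPM or more in pollen and at least 8 times lower in both embryogenic groups summed to 1542, 617, 1097 and 1734 CPM in HS + TSAlow libraries 1 to 4. They were highest in the libraries where the 96 genes were lowest. In HS + TSAhigh they summed to 409, 386 and 357 CPM, and in pollen to between 9914 and 21336 CPM. The correlation of log2(CPM + 1) with the pollen mean over 45264 genes was 0.852, 0.802, 0.828 and 0.857 in HS + TSAlow and 0.799, 0.770 and 0.732 in HS + TSAhigh. Within HS + TSAhigh, library 1, where the 96 genes summed to 26408 CPM, was the highest in both measures. Its level of the 22 pollen genes was below that of any HS + TSAlow library, a comparison that also crosses the doses. The part of RNA from pollen in the order of libraries was not tested.

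Pairs of the 96 genes were often but not always alike over the 7 embryogenic libraries. The median Pearson r of log2(CPM + 1) over 4560 pairs was 0.490, with 415 pairs above 0.9 and 1110 below 0, and these values share library and depth. The gene most like A06p44980.1_BnaDAR was C07p31200.1_BnaDAR (r = 0.996), another of the 6 that rose. The nearest to A01p23010.1_BnaDAR was A09p01170.1_BnaDAR (r = 0.993), to A02p20480.1_BnaDAR it was A03p13820.1_BnaDAR (r = 0.992) and to C09p65080.1_BnaDAR it was A10p25990.1_BnaDAR (r = 0.941). A08p04090.1_BnaDAR was nearest to A08p21280.1_BnaDAR (r = 0.962) and A06p07030.1_BnaDAR to A01p13310.1_BnaDAR (r = 0.982). All of these are descriptions over 7 libraries. Only 10 of the 96 genes had a median r with the others below 0. One of these, A02p38190.1_BnaDAR, singled out after its values were seen, had a median r of -0.386, the highest pollen mean of the 96 (71.6 CPM) and 17 exons, a number that 1 other gene of the 96 also had and none exceeded, with 4268 exonic bases.

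The genes were also described by their level in pollen, which enters the ratio. In the 31 genes under 1 CPM in pollen the median ratio to pollen was 1569 in HS + TSAlow and 2123 in HS + TSAhigh, and 1 gene rose and 0 fell between doses. In the 37 genes from 1 to under 10 CPM these ratios were 65.3 and 73.3, with 3 genes that rose and 1 that fell. In the 28 genes at 10 CPM or more they were 12.9 and 16.1, with 2 that rose and 3 that fell. Over all genes tested 4.94% rose and 5.46% fell. The counts of calls in these classes are too small to set against each other or against these shares.

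Gene structure was not used to choose the genes, and it differed in its distribution from that of other genes. Genes of 1 or 2 exons made up 49 of 96 (51.0%), beside 28.5% of all genes tested, 24.3% of the 1310 abundant genes and 38.6% of the 977 genes above pollen at a lower level. Single-exon genes were 26 of 96 (27.1%), beside 16.3%, 12.3% and 20.5% in the same order. Genes of 10 or more exons were 10 of 96 (10.4%), beside 20.5%, 19.2% and 10.5%. The median exonic length was 985 bases, beside 1378, 1201 and 1306 bases. Because CPM was not divided by length, the limit of 100 CPM took long genes at a lower level per kb than short ones, and the 1310 abundant genes came through the same limit. No test was made of these shares, since genes are not replicates.

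**Figure D5:**
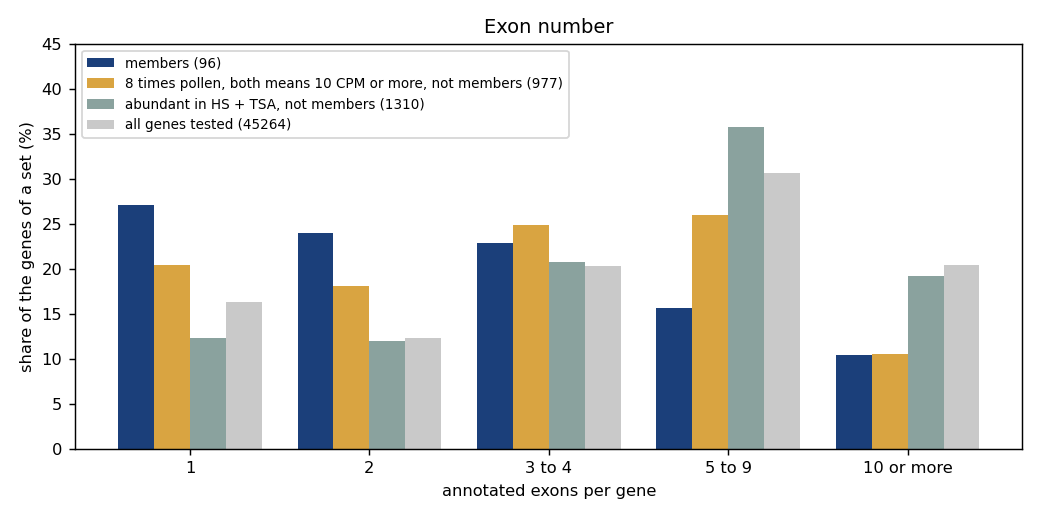
Percent of genes in each class of exon number for the 96 genes and all 45264 genes tested. Also shown are the 977 genes at least 8 times above pollen at a lower level, and the 1310 other genes at 100 CPM or more in both embryogenic groups. Genes with 1 exon make up 27.1% of the 96 and 16.3% of all genes tested, and genes with 10 or more exons 10.4% and 20.5%.

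The 96 genes were spread over all 19 chromosomes, with the most on A03 (10), C09 (9) and C08 (8) and the fewest on A10 (1). In that order these chromosomes held 10.4%, 9.4%, 8.3% and 1.0% of the 96, beside 7.14%, 6.53%, 5.06% and 3.53% of all genes tested. *B. napus* joins an A and a C subgenome, of which the A held 50 genes (52.1%), the C 45 (46.9%) and an unplaced scaffold 1, where 47.2% and 51.7% of all genes tested lay on A and C. Among the 96 genes, 5 pairs lay within 5 genes of each other, and they were singled out after their values were seen. How many such pairs other sets of 96 genes would form was not tested. The adjacent pair C08p04270.1_BnaDAR and C08p04280.1_BnaDAR, on opposite strands, correlated by 0.635 over the 7 libraries. The level of C08p04280.1_BnaDAR, the third highest of the 96, was 790, 2874, 2874 and 548 CPM in HS + TSAlow and 746, 766 and 1039 CPM in HS + TSAhigh. That of C08p04270.1_BnaDAR was 544, 1340, 1306 and 558 CPM, and 330, 1044 and 1689 CPM. Both were low in HS + TSAlow libraries 1 and 4, while the order of the HS + TSAhigh libraries was the same with unlike spacing. The other adjacent pair, C05p07360.1_BnaDAR and C05p07380.1_BnaDAR, correlated by 0.206. Of the pairs with genes between them, A02p43240.1_BnaDAR and A02p43260.1_BnaDAR correlated by 0.946, A02p00450.1_BnaDAR and A02p00490.1_BnaDAR by 0.40, and C06p45680.1_BnaDAR and C06p45730.1_BnaDAR by -0.156. Of the 192 genes directly beside a member, 4 were members, where 96 of all 59458 genes were. A further 19 were at least 8 times above pollen in both groups, a state that 8.26% of genes tested were in. In both groups 51 were under 1 CPM, and the 192 include genes that were not tested.

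Related copies of a gene are common in this genome, and they were sought by structure, as genes with the same lengths of all internal exons. Of the 25 genes with 5 or more exons, 13 (52.0%) shared them with another gene, beside 38.3% of 23161 genes tested with as many exons. The partner genes numbered 24, of which 4 were themselves members, making the pairs A09p01170.1_BnaDAR with C09p01250.1_BnaDAR and A03p62670.1_BnaDAR with C07p60220.1_BnaDAR. Of the other 20 partners, 11 had both embryogenic means at least 8 times the pollen mean, a state that 8.26% of genes tested were in. The same exon pattern was shared by A01p23010.1_BnaDAR and C01p28610.1_BnaDAR, both among the 96 and with 4 exons each. Not all members of 4 exons had such a partner. C09p71370.1_BnaDAR, singled out after its values were seen, had means of 916 and 1371 CPM at low and high TSA. It shared its pattern with 24 genes, none of which was a member. The level of C01p28610.1_BnaDAR was 1.61, 1.36 and 2.22 CPM in pollen, 111, 411, 300 and 137 CPM in HS + TSAlow, and 382, 669 and 766 CPM in HS + TSAhigh. Its embryogenic groups overlapped in HS + TSAlow library 2, and its log2 fold change was 1.33 (SE 0.47, adjusted p = 0.102, edgeR), where A01p23010.1_BnaDAR was at 2.09. These pairs were singled out after their values were seen, and reads could be shared between near-identical copies, so the levels of single copies are uncertain. Of the 96 genes, 4 (4.17%, beside 6.38% of all genes) overlapped another gene, A03p13820.1_BnaDAR and C07p60220.1_BnaDAR among them. The library kit did not mark the strand, so their reads and those of the overlapping gene cannot be told apart.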

How the data were processed

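RNA was measured in 10 libraries. The authors deposited raw counts of reads per gene. Per the submitters' processing notes, STAR 2.7.10a and featureCounts (Subread 1.5.2) were used. The study states other versions of both tools, and names the Darmor-bzh version 10 genome. The deposited normalized table holds counts divided by a DESeq2 size factor, a signal used only for an alternative count of members. The authors' comparison tables hold log2 fold changes, standard errors, Wald statistics, p-values and adjusted p-values, and were not used. Column sums may exceed the number of fragments, since 65.8% to 75.2% of nonzero counts were even. No value column was left without a sample (0).

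The raw table has 61170 rows, of which 1712 exact repeats were dropped (12 of the 96 members had one). CPM was taken on column sums. Counts were tested with edgeR 4.0.16 in R 4.3.3 after filterByExpr (minimum count 10, minimum total 15) and TMM, by the robust quasi-likelihood test. One fit held the 10 libraries, and p-values of 45264 genes were adjusted by Benjamini-Hochberg. The SE was derived from the log2 fold change and the F statistic (fold change over root F). The fit was tested on simulated data. Python 3.11.15 was used for tables (pandas 2.3.3), intervals (scipy 1.17.1, numpy 2.4.6) and figures (matplotlib 3.10.9). Intervals of ratios to pollen are exact 95% binomial intervals.

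The members and lists were chosen with earlier results of these data known. Of the gene IDs, 0 matched the reference gene table, so the rule for naming printed IDs for the 2 members with the highest mean embryogenic level and for the 2 with the largest log2 fold change in each direction among those called between doses, each with its most similar member. Other IDs are marked as chosen after their values were seen or lie at the limits of the rule.

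Alternatives were DESeq2 1.42.0, limma-voom (limma 3.58.1), other scalings, filters, thresholds and limits, the replicate number as a block, counts halved to read pairs, and libraries left out. Those chosen after seeing the data were a fit of HS + TSAlow libraries 1 and 4 and HS + TSAhigh library 1 with pollen, and the summed CPM without the 2 highest members. Same-numbered HS + TSAlow and HS + TSAhigh libraries had correlated deviations (r = 0.320, 0.126 and 0.186 over all genes tested), each over 0.1, and were treated as pairs in the block. Pollen libraries were joined to those of the same number. HS + TSAlow library 4 had no partner, so it was in effect left out of the dose contrast in that fit. HS + TSAlow library 4 correlated by 0.292 with HS + TSAhigh library 1, HS + TSAlow library 2 by 0.168 with HS + TSAhigh library 3 and HS + TSAlow library 3 by 0.176 with HS + TSAhigh library 2, so the pairing is uncertain.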

Additional observations from a re-analysis of the deposited data

How the results depend on the processing

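The number of members, 96, was 149 with a ratio limit of 4, 224 with a level limit of 50 CPM, 48 with one of 200 CPM and 49 when every library had to pass both limits. It was 87 to 100 when any 1 library was left out. Leaving out 1 library gave summed levels of 804 to 836 CPM in pollen, 33750 to 40925 CPM in HS + TSAlow and 34386 to 46395 CPM in HS + TSAhigh.

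Between the doses, edgeR called 6 members higher and 4 lower, beside 4.94% and 5.46% of all genes. With DESeq2 and with limma-voom 12 were higher, beside 9.27% and 5.64% of all genes. With the replicate number as a block, 6 were higher and 7 lower, beside 2.58% and 3.68% of all genes, and the block rests on an uncertain pairing. When any 1 library was left out, 0 to 18 were higher and 0 to 4 lower. The 18 stood beside 6.87% of all genes, and the counts of 0 higher beside 2.02% to 2.4%. The count of 0 lower stood beside 2.91%. Without HS + TSAlow libraries 1 and 4, edgeR called 0 higher, beside 1.37% of all genes, with 20 at an unadjusted p under 0.05 in either direction. With only those libraries, HS + TSAhigh library 1 and pollen, 9 were higher (5.28% of all genes) and 17 lower (6.87%), and the single HS + TSAhigh library is assumed to vary like the other groups. At an adjusted p of at most 0.01, edgeR called 0 in both directions, beside 1.08% and 1.1% of all genes, with 28 at an unadjusted p under 0.05. With a log2 fold change of at least 1 in size required as well, 3 were higher (3.14% of all genes) and 2 lower (3.19%). Other scalings, no filter on low counts and counts halved to read pairs left both counts within 1.5 times. The log2 fold change of A06p07030.1_BnaDAR ran from -0.65 to 0.074 with any 1 library left out (0.074 without HS + TSAhigh library 1), and of the 6 members whose log2 fold change was recomputed under each alternative, the other 5 kept their direction. The cause of these changes was not tested.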

Other observations

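A further 4 genes had both embryogenic means at 100 CPM or more but no counts in any pollen library, and so were not among the 96. They were C09p02070.1_BnaDAR (182.3 and 243.1 CPM at low and high TSA), C08p24300.1_BnaDAR (185.2 and 145.5 CPM), A08p22360.1_BnaDAR (251.7 and 109.1 CPM) and A03p68860.1_BnaDAR (140.3 and 104.2 CPM). They are named because they fell outside the rule only through the demand for 1 pollen count, and were singled out after their values were seen.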
